A study of Mus musculus with 2 samples.

Results

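The ATP-binding cassette (ABC) superfamily was taken as the genes whose symbol is Abca, Abcb, Abcc, Abcd, Abce, Abcf or Abcg followed by a digit. This gave 41 members of the 20002 genes in the table. Subfamily A had 12 members, B 8, C 9, D 4, E 1, F 3 and G 4. The mouse genes Abca12, Abca14, Abca15, Abca16, Abcb5, Abcb11, Abcc12, Abcg4 and Abcg5 were not analysed here.

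Whole-kidney RNA of C57BL/6J mice was sequenced in 2 libraries, 1 of a control and 1 of a Reg-2 CKO kidney. Reg-2 stands for Regnase-2, an RNA-degrading protein encoded by Zc3h12b. The label calls the CKO a conditional knockout in the proximal tubule. By the methods, however, the mice received AAV9 with short hairpin RNA (shRNA) against Regnase-2 through the tail vein at 11 weeks of age. That is a knockdown with no deleted allele and no Cre driver named, and AAV9 reaches the proximal tubule mainly but not only. Controls also received AAV9, which the methods describe in 1 place as control shRNA and in another as an empty vector. The left kidneys came from mice aged 14 weeks by the sequencing methods and 16 weeks by the injection methods. Whether a library held 1 mouse or a pool was not stated. With 1 library in each group, differences between mice and between groups cannot be told apart, and no test was made.

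ABC proteins share a domain that binds and hydrolyses ATP, and most use that energy to move a substrate across a membrane. In the proximal tubule, pumps of the brush border pass drugs, conjugates and urate into the urine, and pumps of the basolateral membrane pass organic anions towards the blood. Other members load lipids onto lipoproteins or into storage bodies or serve peroxisomes, mitochondria or lysosomes, and those of subfamilies E and F have no membrane part and act on ribosomes.

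After a constant was taken off each column (34 for control, 50 for CKO), the libraries held 38851231 and 43588721 reads. The submitters label the values normalized counts, and the methods also name FPKM. That what is left are reads is an inference from the whole numbers, and the totals and counting intervals rest on it. The scaling factor for CKO was 0.667, so that the middle gene had the same level in both. Read numbers in the text are not scaled, while folds and log2 ratios (CKO over control) are, and only the log2 ratios have 1 read added to each side. "Called" means a change of 2-fold or more. Each interval is a 95% Clopper-Pearson interval without the added read and covers counting error only. Zc3h12b had 47 control and 59 CKO reads, a log2 ratio of -0.25 (-0.83 to 0.33) that became 0.16 with equal library totals. The target gene therefore does not check the label, and the sample is called the library labelled CKO.

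Small ratios depended on how library size was set. For all genes the median log2 ratio was 0.022 as scaled here, 0.44 with equal totals and 0.57 for the deposited values taken unscaled. As scaled here, 51.5% of all genes were above 0. Of the 40 members that reached 10 scaled reads in a library, 5 were below 0 whatever the setting (Abca3, Abcb6, Abcb8, Abcd3 and Abcg2) and 19 were above 0. The other 16 were below 0 as scaled here and changed sign with at least 1 setting. Abcc8 did not reach the minimum.

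ABC mRNA made up a small and similar part of each library: the 41 members held 0.265% of control reads and 0.279% of CKO reads. Per length, the highest level was that of Abca3, a phospholipid transporter known from the lamellar bodies of the lung, with 4792 control reads and 2748 scaled CKO reads per kilobase of its longest transcript. Abcd3, a transporter of the peroxisome membrane, had 3703 and 2153 per kilobase. Abcg2, the breast cancer resistance protein, which moves urate and drugs into the urine, had 3069 and 2007 per kilobase. These 3 members held ranks 1, 2 and 3 per length in both libraries.

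The same 3 members held a smaller share of the family's reads in the library labelled CKO, 45.4% against 59.7% in control. A share within the family needs no scaling between libraries. For Abca3 it went from 30.1% (29.9% to 30.4%) to 21.9% (21.7% to 22.2%), with the exact binomial interval in parentheses. For Abcd3 it went from 12.5% (12.3% to 12.8%) to 9.26% (9.10% to 9.43%). By contrast, the share of Abcc4, which exports cyclic nucleotides and organic anions, went from 0.789% (0.735% to 0.845%) to 3.44% (3.34% to 3.55%). Shares sum to the whole, so a smaller share of these 3 members raises the shares of others. In whole kidney, fewer cells of a type and less RNA per cell cannot be told apart.

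**Figure D1:**
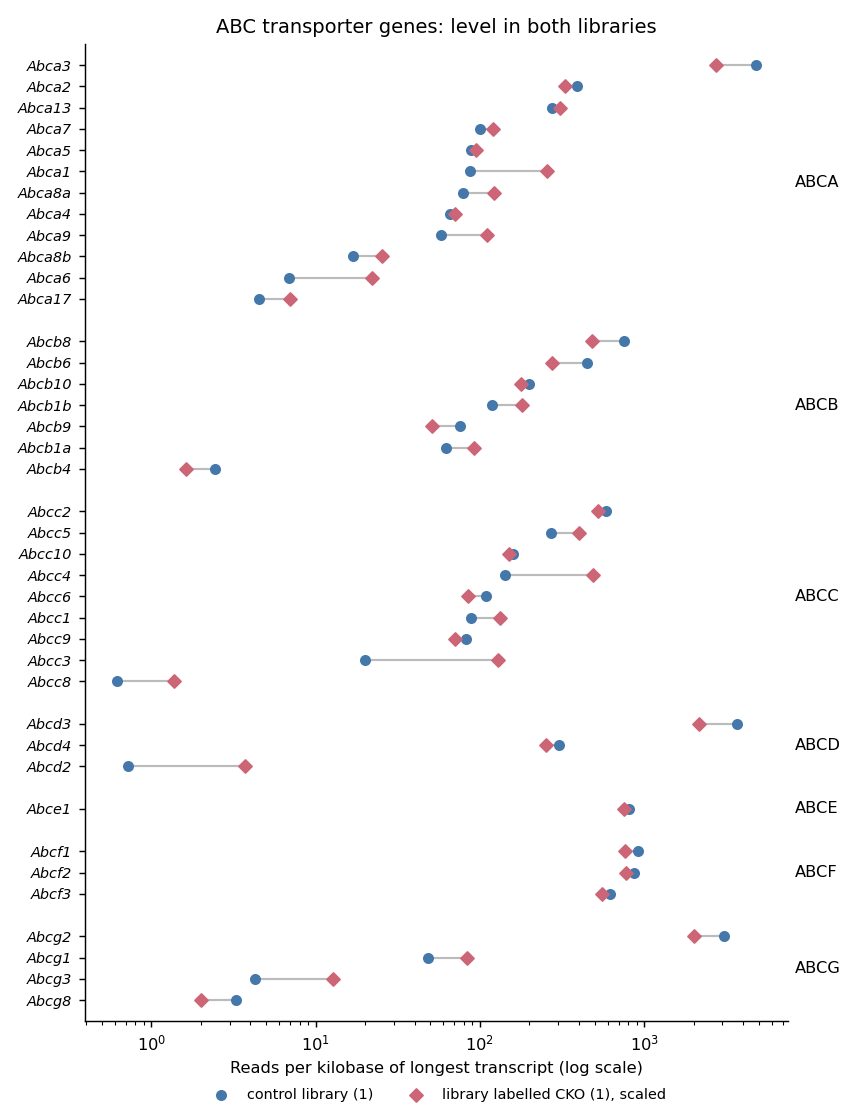
Reads per kilobase of the longest transcript on a log axis for ABC genes by subfamily, with control reads and scaled CKO reads as separate points. Abca3, Abcd3 and Abcg2 have the highest levels in both libraries, and the points of Abcc3, Abcd2 and Abcc4 lie furthest apart.

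Among the 40 members that passed the minimum, 6 were called higher in the library labelled CKO, which is 15% against 13.4% of all 17469 genes that passed. None was called lower, against 5.35% of all genes. As scaled here, the share of members called higher was thus near that of all genes. At 1.5-fold, 13 members were higher and 6 lower, where 21.8% and 13.9% of all genes were. Abcd2 among the higher and Abcg8 among the lower passed the minimum only through the library in which they were high. The interval lay above 0 for 16 members, below 0 for 17 and across 0 for 7. Among all 17469 genes that passed, it lay above 0 for 6065 and below 0 for 5871. The median of the members was -0.043, and its distance from the median of all genes was between -0.083 and 0.015 over all settings. Over all genes 2334 were called higher and 934 lower, against 3870 and 437 with equal totals and 3574 and 131 unscaled. The 6 members called higher were Abcc3, Abcd2, Abcc4, Abca6, Abca1 and Abcg3. That number was 14 with equal totals, where 21.9% of all genes were called higher, and 14 unscaled, where 17.9% were, so the members' share was above that of all genes there and at 1.5-fold. With the deposited values scaled it was 4, against 5.98% of all genes. Under no setting did a member reach 2-fold lower.

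The subfamilies differed in their medians. Subfamily A, the lipid transporters, had a median log2 ratio of 0.43 over 12 members, 10 of them above 0. Subfamily C, which holds the organic anion pumps, had 0.25 over the 8 members that passed, 4 of them above 0. Subfamily G had 0.092 as scaled here, 0.51 with equal totals and 0.79 unscaled, with 2 of 4 above 0. Subfamily B had -0.41 as scaled here and 0.35 unscaled, with 2 of 8 above 0. Subfamilies D (4 members), E (1) and F (3) had -0.13, -0.11 and -0.15 as scaled here and turned positive with equal totals. Relative to the median of all genes in the same setting, A lay between 0.28 and 0.43, C between 0.12 and 0.58 and G between 0.068 and 0.23. B lay between -0.46 and -0.21, D between -0.25 and -0.11, E between -0.14 and -0.096 and F between -0.18 and -0.13. Subfamilies A, C and G thus stood above that median, which takes genes of any read number, and B, D, E and F below it, under every setting. Summed over members, the scaled reads gave log2 ratios of -0.41 for A, 0.37 for C and -0.57 for G. Members of a subfamily are not replicates, and within A, B, C, D and G the ratios spread more widely than the medians did.

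**Figure D2:**
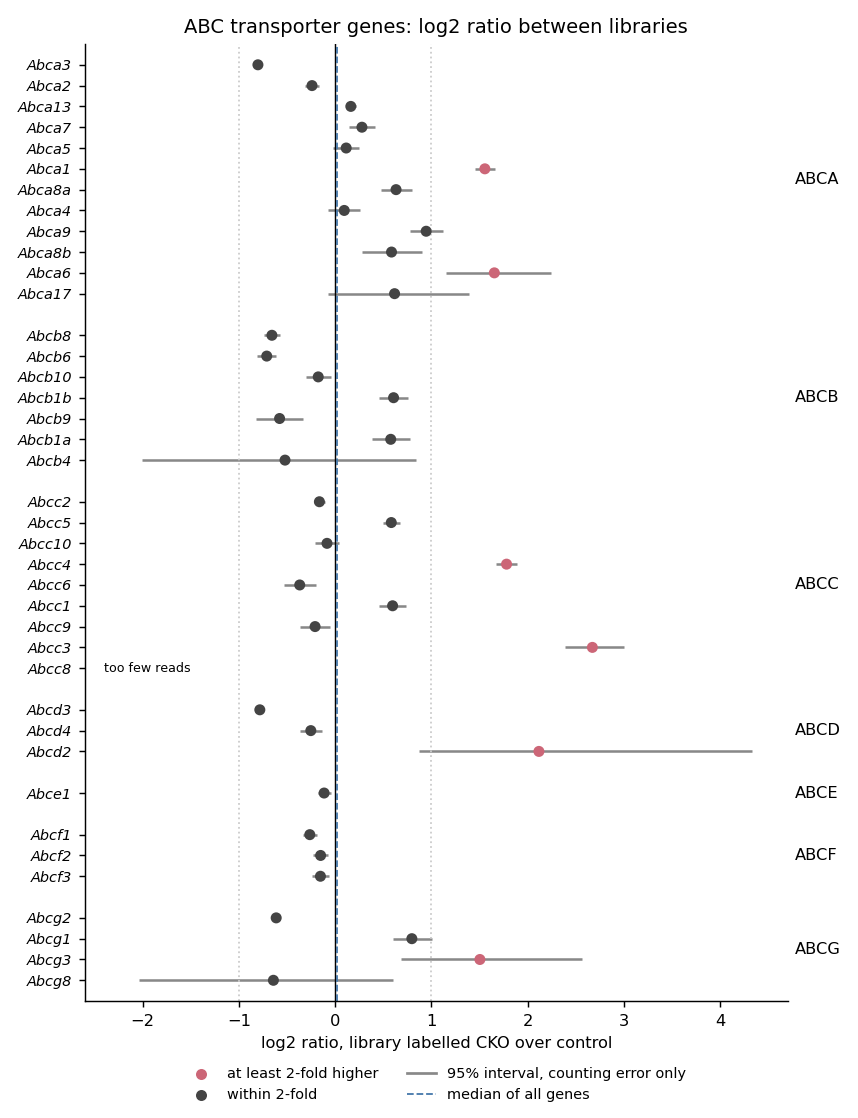
Log2 ratio of the library labelled CKO over control for ABC genes with enough reads, by subfamily, with lines for the 95% interval of counting error and a dashed line at the median of all genes. The 6 genes called higher stand right of 1 and none stands left of -1, and Abcd2, Abcg3, Abcb4 and Abcg8 have wide intervals from few reads.

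Pumps of the apical membrane went different ways, with 3 of 5 above 0. Abcc4, on chromosome 14 from 118482692 to 118706219 of GRCm38, had 812 control and 4185 CKO reads, 3.44-fold higher after scaling (3.19 to 3.71). Abcc2, the pump of glutathione and glucuronide conjugates, had 4726 and 6328 reads, with a log2 ratio of -0.16 that became 0.42 unscaled. Abcg2, on chromosome 6 from 58584523 to 58695676, had 17543 and 17211 reads. Its log2 ratio was -0.61 (-0.64 to -0.58), below 0 under every setting but only -0.026 unscaled. The balance between these pumps can be read without scaling. Abcc4 reads were 0.0463 of Abcg2 reads in control and 0.243 in the library labelled CKO, a change of 5.25-fold (4.86 to 5.68). Against Abcc2 the change was 3.85-fold (3.54 to 4.19). Per length, Abcc4 went from rank 19 of the family to rank 9, next to Abcc2 at rank 8.

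P-glycoprotein, the efflux pump of lipophilic drugs, has a pair of genes in the mouse that are neighbours on chromosome 5. Abcb1a had 309 control and 692 CKO reads, log2 ratio 0.58 (0.38 to 0.78). Abcb1b had 509 and 1163 reads, log2 ratio 0.61 (0.46 to 0.76). Both were above 0 under every setting. Antisense Gm42686 covers 10.1% of the exon bases of Abcb1a. The number of Abcb1b reads per Abcb1a read was 1.65 in control and 1.68 in the library labelled CKO, a change of 1.02-fold (0.861 to 1.21), so counting error covers any difference between the copies. Of the 100-base windows of Abcb1b, 8.72% also occur in Abcb1a, and 7.72% of those of Abcb1a occur in another gene, so some of their reads cannot be assigned with certainty. Abcb4, the phosphatidylcholine transporter of bile canaliculi and the next gene on the chromosome, had 10 reads in each library.

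Scaffold proteins that tie apical transporters to the actin skeleton had a median log2 ratio of -0.20 as scaled here and 0.22 with equal totals. As scaled here, 2 of 6 genes were above 0 and none was called. Of all genes, 51.5% were above 0, 13.4% called higher and 5.35% called lower. The highest was Msn (moesin), with 5913 and 14858 reads and a ratio of 0.74. Pdzk1, a scaffold of the brush border, was the lowest, with 50357 and 45327 reads and a ratio of -0.74.

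Abcc3, a basolateral pump of glucuronides and bile salts, had the highest ratio of the family. On chromosome 11 from 94343295 to 94392997, it had 100 control and 963 CKO reads, 6.42-fold higher (5.22 to 7.97), which is rank 289 from the top among 17469 genes. Its level per length stayed modest, at 20 and 128 reads per kilobase, rank 33 of the family in control and 23 in the library labelled CKO. Against the apical Abcc2 it gained 7.19-fold (5.83 to 8.87). The other 4 members of the group of basolateral and related anion pumps had smaller ratios. Abcc1, a pump of glutathione conjugates, had 599 and 1359 reads and 0.60, and Abcc5, which exports cyclic nucleotides, 1565 and 3516 reads and 0.58. Both were above 0 under every setting. Abcc6, whose loss causes ectopic mineralization, had 545 and 633 reads and -0.37, and Abcc10 840 and 1188 reads and -0.085, both of which turned positive with equal totals.

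Transporters of sterols and phospholipids had a median log2 ratio of 0.43, with 8 of 12 above 0 and 2 called higher, where 51.5% of all genes were above 0 and 13.4% called higher. Abca1, which hands cellular cholesterol to apolipoprotein A-I, lies on chromosome 4 from 53030787 to 53159895. It had 896 control and 3950 CKO reads, 2.94-fold higher (2.73 to 3.16). Abca6, on chromosome 11 from 110176820 to 110251776, had 36 and 173 reads, 3.20-fold higher (2.23 to 4.72). Both were called under every setting with the 2-fold threshold. Abcg1, which passes cholesterol to larger lipoprotein particles, had 281 and 733 reads and a ratio of 0.80, above 0 under every setting. There were 3.19 Abca1 reads per Abcg1 read in control and 5.39 in the library labelled CKO, a change of 1.69-fold (1.45 to 1.97). Abca2 and Abca7, which are best known from the brain and from phagocytes, had 3142 and 3989 and 668 and 1215 reads, with ratios of -0.24, which became 0.35 unscaled, and 0.28.

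At the other end was Abca3, on chromosome 17 from 24351950 to 24410201, with 31030 control and 26691 CKO reads. Its log2 ratio of -0.80 (-0.83 to -0.78) was the lowest of the members and remained below 0 unscaled, at -0.22. Abca17 is its neighbour, 882 bases away on the opposite strand, with 24 and 56 reads and a ratio of 0.62 (-0.076 to 1.39), an interval that holds 0. Abca3 reads per Abca17 read went from 1293 to 477. An antisense gene, D330041H03Rik, covers 9.75% of the exon bases of Abca3, and whether the counting used the strand was not stated for any gene.

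A cluster on chromosome 11 holds Abca8b, Abca8a, Abca9, Abca6 and Abca5 in this order, all on the reverse strand, with at most 29789 bases between neighbours. Their log2 ratios in that order were 0.58, 0.63, 0.94, 1.65 and 0.11, all above 0 under every setting. The reads were 125 and 282 for Abca8b, 441 and 1026 for Abca8a, 368 and 1064 for Abca9 and 723 and 1174 for Abca5. Ratios thus grew along the cluster up to Abca6 and were lowest at Abca5, its end. Abca6 gained 2.96-fold (2.04 to 4.29) on Abca5, and Abca9 gained 1.24-fold (1.06 to 1.46) on Abca8a. Between Abca8b and Abca8a the change was 0.970-fold (0.764 to 1.23), which counting error covers.

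Partners of cholesterol efflux, 9 genes, had a median of 0.23, with 5 above 0 and 1 called higher, near the 51.5% and 13.4% of all genes. That was Apoe, a lipoprotein component that accepts cholesterol, with 6746 and 40662 reads and a ratio of 2.01. Lpcat3, which remodels phospholipids, was the lowest, with 4861 and 5425 reads and -0.43. Receptors and factors known to regulate ABC genes had a median of -0.18 as scaled here and 0.24 with equal totals, with 3 of 8 above 0 and 1 called lower as scaled here, where 5.35% of all genes were called lower. The gene called lower was Nr1h4, the bile acid receptor FXR, with 6409 and 4717 reads and -1.03. Nr1i2, the xenobiotic receptor PXR, was the highest, with 127 and 360 reads and 0.91. Nr1h3, the oxysterol receptor LXR alpha, of which Abca1 is a known target, had 1868 and 1494 reads and -0.91, so receptor and target mRNA differed in direction as scaled here. Nr1i3 was not analysed here.

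Promoters of 4 members are shown: Abca1 and Abcc4, the called members with most reads, and Abca3 and Abcd3, the members with the lowest ratios. They are RefSeq sequences of build GRCm38.p6, 5′ to 3′ on the strand of the gene, ending at the base before its start. Capitals mark matches on either strand to TGACNNNGC (the core of the antioxidant response element), TGANTCA (the AP-1 motif), CCAAT (the CCAAT box), CACGTG (an E-box) or AGGTCA (the hexamer of nuclear receptors), whose reverse complement can overlap the first of these. The windows are chr4:53159896-53160145 (reverse strand) for Abca1, chr14:118706220-118706469 (reverse) for Abcc4, chr17:24351773-24351949 (forward) for Abca3, where 73 bases inside the annotated gene were left out, and chr3:121815303-121815552 (reverse) for Abcd3.
Abca1: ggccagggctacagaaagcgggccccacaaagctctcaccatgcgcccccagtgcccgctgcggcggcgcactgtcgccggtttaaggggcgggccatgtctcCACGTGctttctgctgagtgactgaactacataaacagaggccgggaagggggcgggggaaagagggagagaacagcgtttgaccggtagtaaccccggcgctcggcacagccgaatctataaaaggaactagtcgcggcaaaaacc
Abcc4: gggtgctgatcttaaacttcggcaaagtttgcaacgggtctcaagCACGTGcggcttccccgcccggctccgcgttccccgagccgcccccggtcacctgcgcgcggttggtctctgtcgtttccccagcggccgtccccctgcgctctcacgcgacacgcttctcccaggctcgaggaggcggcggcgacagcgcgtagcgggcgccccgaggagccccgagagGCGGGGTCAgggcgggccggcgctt
Abca3: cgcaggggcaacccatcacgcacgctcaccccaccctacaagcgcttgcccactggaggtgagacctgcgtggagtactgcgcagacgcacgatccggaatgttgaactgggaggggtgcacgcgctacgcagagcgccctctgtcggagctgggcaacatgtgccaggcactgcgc
Abcd3: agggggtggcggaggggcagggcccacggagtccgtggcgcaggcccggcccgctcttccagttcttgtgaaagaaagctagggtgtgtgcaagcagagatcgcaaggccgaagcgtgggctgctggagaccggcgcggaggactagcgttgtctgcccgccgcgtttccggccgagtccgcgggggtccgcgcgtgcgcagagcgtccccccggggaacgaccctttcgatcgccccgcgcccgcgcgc

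Abca1 holds the E-box CACGTG from 147 bases before its start. Abcc4 holds it from 205 bases before the start, and TGACNNNGC on the other strand from 25 bases before it. The windows of Abca3 and Abcd3 hold none of the 5 motifs. Of all 32851 promoters in the reference, 6.02% hold CACGTG in the 250 bases before the start and 10.2% hold TGACNNNGC. Of the 30 members with an entry, 4 hold CACGTG (Abca1, Abca8a, Abcc4 and Abcf1) and 3 hold TGACNNNGC (Abcc2, Abcc4 and Abcc10). CCAAT is in 8 of 30 members and 33.8% of all promoters, AGGTCA in 4 and 14%, and TGANTCA in 0 and 6.75%. A match of letters is a description and not a binding site. Abca6, Abcb8, Abcc1, Abcc3, Abcc6, Abcc8, Abcd2, Abcd4 and Abcg1 had no entry.

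Peroxisomal ABC transporters are short proteins that pair to carry acyl-CoA into the organelle. Abcd3, which takes branched-chain and dicarboxylic acids, lies on chromosome 3 from 121758774 to 121815302 and had 12920 control and 11266 CKO reads. Its log2 ratio was -0.78 (-0.82 to -0.75), and -0.20 unscaled. It was below 0 under every setting. Abcd2, a carrier of very long chain acyl-CoA, had 4 and 31 reads, 5.17-fold higher (1.83 to 20.1). Abcd2 passed the minimum only through the library in which it was high, so among members that passed it had to differ. With the deposited values scaled by their own median gene ratio, its log2 ratio was 0.51, short of 2-fold. Per length, Abcd3 stood far above Abcd2 in control, at 3703 against 0.723 reads per kilobase. Abcd2 gained 8.89-fold (3.14 to 25.2) on Abcd3, from a few reads.

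Genes of peroxisomal import and very long chain oxidation had ratios like that of Abcd3. All 7 were below 0 as scaled here and 2 were called lower, where 51.5% of all genes were above 0 and 5.35% called lower. The median of the 7 was -0.58 and became 0.022 unscaled. Slc27a2, which activates very long chain fatty acids, was called lower, with 157696 and 100638 reads and -1.23. Pex19, a receptor for new membrane proteins of the peroxisome, was the highest, with 3834 and 4218 reads and -0.45.

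Mitochondrial ABC transporters were all 4 below 0 as scaled here, with a median of -0.48 that became 0.12 unscaled. Abcb8, of the inner membrane and with the most reads per kilobase in subfamily B, had 2328 control and 2214 CKO reads, log2 ratio -0.66 (-0.74 to -0.57). Abcb6, a porphyrin transporter, had 1705 and 1562 reads, log2 ratio -0.71 (-0.81 to -0.61). Abcb10, needed for heme synthesis, had 861 and 1143 reads and -0.18. Abcb6 and Abcb8 were below 0 under every setting, while Abcb10 turned positive with equal totals. The members also changed against each other, for example with 0.370 Abcb10 reads per Abcb8 read in control and 0.516 in the library labelled CKO. Antisense Gm45890 covers 10.3% of the exon bases of Abcb10. Gm29253, annotated on the same strand, shares 62.2% of the 100-base windows of Abcb6, so the reads of Abcb6 are uncertain.

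Partners in heme and iron-sulfur synthesis were 7 of 7 below 0 as scaled here, with a median of -0.18 that became 0.24 with equal totals. Nfs1, the cysteine desulfurase, was the lowest, with 5339 and 4630 reads and -0.79. Slc25a37, the iron importer mitoferrin, was the highest, with 1127 and 1584 reads and -0.094.

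Lysosomal members had a median of -0.42 as scaled here and 0.21 unscaled. Abcd4, which helps export cobalamin, had 1118 control and 1407 CKO reads and a ratio of -0.25. Abcb9, a peptide transporter, had 279 and 280 reads and -0.58 (-0.82 to -0.34).

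Subfamilies E and F were the most even. Abce1, which splits ribosomes for reuse, had 3090 control and 4280 CKO reads and a ratio of -0.11. Abcf1, which works with the initiation factor eIF2, had 2910 and 3636 reads and -0.26. For Abcf2 the values were 2228, 3009 and -0.15, and for Abcf3 1909, 2575 and -0.15. These 4 genes ran from -0.26 to -0.11, where the whole family ran from -0.80 to 2.67, and all 4 turned positive with equal totals. Per length they held ranks 4, 5, 6 and 8 of the family in control and 4 to 7 in the library labelled CKO. Of 7 partners in ribosome recycling and eIF2, 1 was above 0 as scaled here, and the median of -0.16 became 0.26 with equal totals. That gene was Eif2s2, a subunit of eIF2, with 2424 and 4009 reads and 0.14. The lowest was Hbs1l, a ribosome rescue factor, with 2400 and 2580 reads and -0.48.

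Abcg3, a rodent relative of Abcg2, had 13 control and 58 CKO reads, 2.97-fold higher (1.61 to 5.92). With the deposited values scaled its log2 ratio was 0.62, short of 2-fold. Abcg8, a subunit of the sterol pump of intestine and bile, had 12 and 11 reads. Abca13, the longest member, had 4408 and 7400 reads and a ratio of 0.16, and Abca4, known from the retina, 479 and 767 reads and 0.094. The sulfonylurea receptors are subunits of ATP-sensitive potassium channels. Abcc9 had 615 and 798 reads and -0.21, which became 0.39 unscaled, and Abcc8 had 3 and 10 reads. The pore genes had 323 and 335 reads and -0.53 for Kcnj8, and 15 and 31 reads and 0.44 for Kcnj11.

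ABC proteins with other names were read from a list of 3, all above 0 under every setting. Tap1, a subunit of the transporter that brings peptides to MHC class I molecules, had 167 control and 930 CKO reads, 3.71-fold higher (3.15 to 4.40). Tap2, the other subunit, had 553 and 1844 reads, 2.22-fold higher (2.02 to 2.45). Tap1 gained 1.67-fold (1.38 to 2.02) on Tap2, so the subunits did not change in step. Cftr, the chloride channel, had 654 and 1220 reads, log2 ratio 0.31 (0.18 to 0.45). With these 3 added, 8 of 43 ABC genes were called higher and 0 lower, against 13.4% and 5.35% of all genes. Partners in peptide loading had a median of 0.60, with 4 of 6 above 0 and 1 called higher. That was B2m, the light chain of MHC class I, with 6418 and 28598 reads and 1.57, and the lowest was the chaperone Calr, with 23053 and 28646 reads and -0.27.

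Across all genes the ratio went down with the level from about 100 mean reads on, so the members were also read against genes of like read number. The median over 432 genes with a mean of 10000 reads or more was -0.59, and over the 3 members among them, Abca3, Abcd3 and Abcg2, -0.78. For 4826 genes with a mean under 100 reads it was 0.32. The 6 members of that level are not summarized, since Abcd2, Abcb4 and Abcg8 passed the minimum only through the library in which they were high. Genes were then split by mean reads into 20 bins of 873 genes or more. Above percentile 90 of their bin, where 10% of all genes lie, were Abca1, Abca9, Abcc3, Abcc4 and Abcc5, and also Abcd2, which had to differ to pass the minimum. Below percentile 10 were Abcb6 and Abcb9. Abca3, Abcd3 and Abcg2 differed from their bin's median by -0.31, -0.29 and -0.12, inside the range, so ratios below 0 as scaled here were shared by most genes of that level. Abca6 and Abcg3 were also inside the range, which is wide for genes with few reads. For subfamilies E and F, Abce1 stood 0.088 above its bin's median, and Abcf1, Abcf2 and Abcf3 differed from theirs by -0.060, -0.025 and -0.056. These translation factors were thus near genes of like read number.

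**Figure D3:**
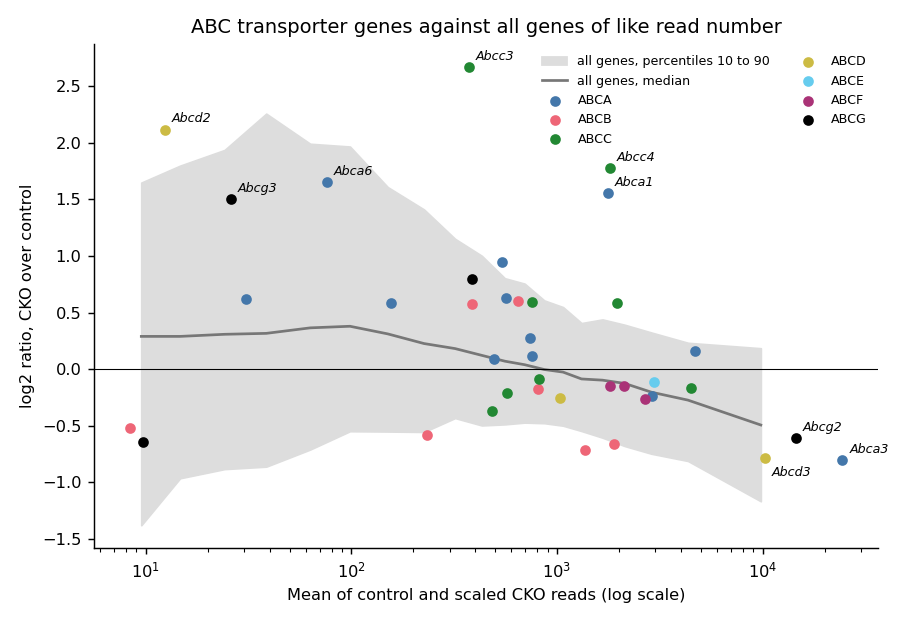
Log2 ratio against the mean of control and scaled CKO reads on a log axis, with ABC genes as points coloured by subfamily, the median of all genes as a line and percentiles 10 to 90 as a band drawn through 20 bins. Abcc3, Abcc4 and Abca1 stand well above the band, and Abca3, Abcd3 and Abcg2 lie past the last bin's centre, where the line is lowest.

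Markers of cell types changed between the libraries at the same time, where 13.4% of all genes were called higher and 5.35% lower. Of 12 proximal tubule markers, 11 were below 0 as scaled here and 3 called lower, with a median log2 ratio of -0.56 that became 0.030 unscaled. Most of these markers had a mean of 10000 reads or more. All genes of that level had a median of -0.59, with 83.1% below 0 and 18.1% called lower, so the markers' median was near that of their level. The 12 markers summed to 561083 control and 478507 CKO reads, and Slc34a1, the phosphate transporter, was the most abundant (147064 and 98124). Macrophage markers were 10 of 10 above 0 and 9 called higher, with a median of 2.64, sums of 6512 and 50316 reads and Cd74 the most abundant (2610 and 23956). Fibroblast and smooth muscle markers were 8 of 8 above 0 and 5 called higher, with a median of 1.36 and sums of 7122 and 25023. The most abundant of them in control was Rgs5 (1564 and 3524). T cell markers were 4 of 5 called higher on few reads, with sums of 143 and 376 and a median of 1.72 that became 1.26 unscaled and 0.69 with the deposited values scaled. Of those called, Cd3e (6 and 33 reads) and Cd8a (8 and 52) passed the minimum only through the library in which they were high. Trac, the most abundant (99 and 109), had a log2 ratio of -0.44. Since the constant leaves each gene at least 1 read, a marker at 0 could not be seen.

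Other cell types gave medians nearer 0 and no called marker. These were -0.081 for 8 endothelial markers (sums of 15372 and 21292 reads, Plvap the most abundant) and -0.11 for 5 of podocytes (8426 and 12034, Podxl), both of which turn positive with equal totals. For 5 markers of the thick limb and distal convoluted tubule the median was 0.078 (141191 and 259619, Umod), and for 6 of the collecting duct 0.20 (12880 and 25365, Aqp2). What part these changes had in the ratios of Abca1, Abcc3, Abcc4 and Tap1, or of Abca3, Abcd3 and Abcg2, was not tested.

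**Figure D4:**
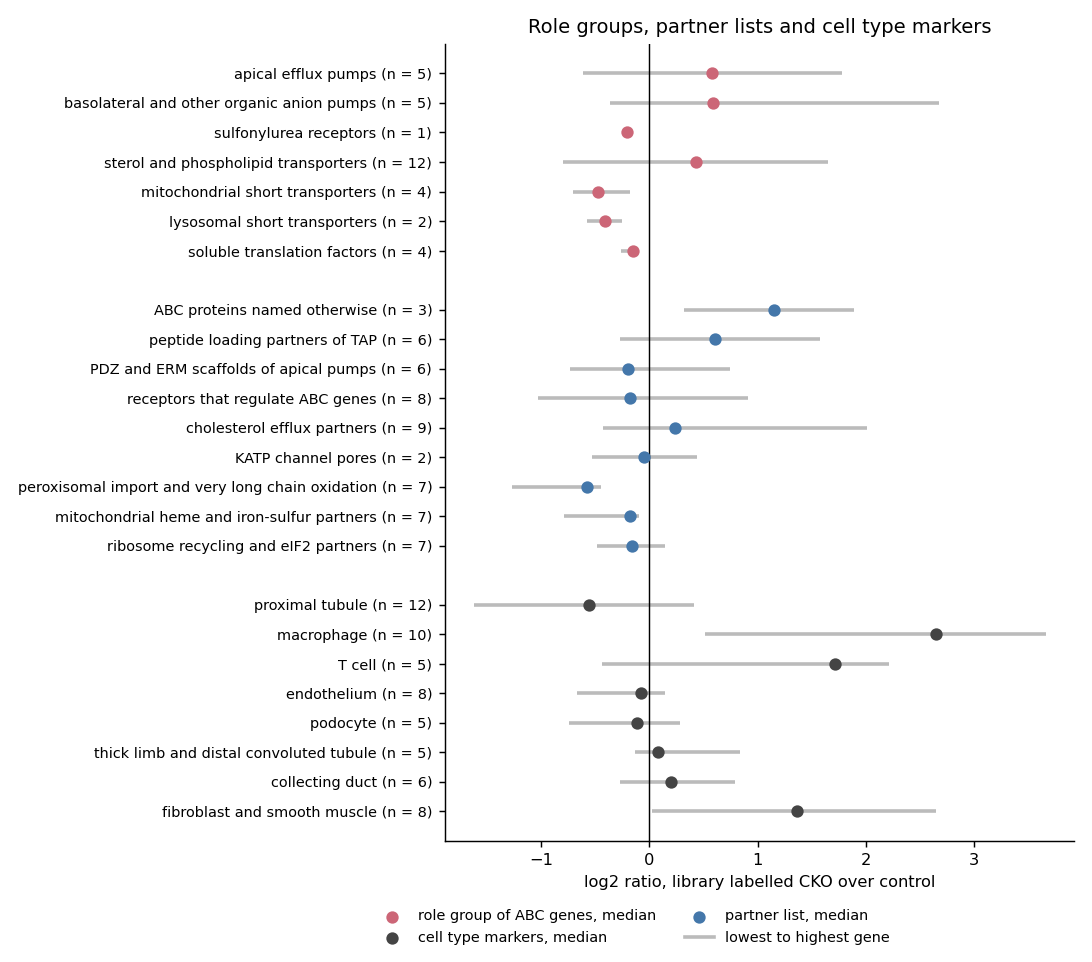
Median log2 ratio (points) and range of the genes (lines) for role groups of ABC genes, partner lists and cell type markers, with the number of genes that passed the minimum. Macrophage markers have the highest median, 2.64, and peroxisomal import and oxidation the lowest, -0.58 as scaled here and 0.022 unscaled.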

How the data were processed

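Whole-kidney poly(A) RNA of 1 control and 1 Reg-2 CKO library was sequenced after a stranded preparation. By the methods, the authors used STAR 2.7.3a for alignment, HTSeq for counts and DESeq2 for normalization, and the submitters' notes name build mm10. The deposited values are whole numbers in no standard unit, here taken as a score. That they are reads plus a constant per column is an inference. The design assumed read counts.

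Each column's minimum minus 1 was subtracted, and CKO reads were scaled. A gene was kept if either library had 10 scaled reads. There is no replicate check and no p-value. The steps were tested on simulated data. Coordinates and the longest transcript came from GENCODE M21 (GRCm38), which matched all 41 members and 17820 genes, and shared windows were 100 bases. No protein sequences were used.

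Members and lists were chosen with earlier results of these data known. The text gives reads for members past 2-fold, the member with most reads per kilobase in each subfamily, the apical pumps, transporters of peroxisomes, mitochondria and lysosomes, the translation factors, Tap1, Tap2, Cftr and the ends of partner lists. A few genes that this rule takes are not reported here. Other genes named were chosen after their values were seen. Alternatives were pseudocounts, filters, thresholds, scalings and floors. Python 3.11.15, numpy 2.4.6, pandas 2.3.3, scipy 1.17.1 and matplotlib 3.10.9 were used.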

Additional observations from a re-analysis of the deposited data

How the results depend on the processing

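No paired analysis was possible, since there was a single library per group. Depth limits the members under about 100 reads, whose intervals span more than 2-fold in several cases. The 6 members called higher became 14 with equal totals (21.9% of all genes), 14 with the values as deposited (17.9%), 13 at 1.5-fold (21.8%) and 2 at 4-fold (4.29%). Abca1, Abca6, Abcc3 and Abcc4 were called higher under each setting with the 2-fold threshold, and Abcd2 and Abcg3 were lost with at least 50 scaled reads, where they are filtered out, and with the deposited values scaled. The 0 members called lower became 6 at 1.5-fold (13.9%). With equal totals, which move all genes up together, the medians were 0.38 for ABC members, 0.85 for subfamily A, -0.014 for subfamily B, 0.67 for subfamily C, 0.29 for subfamily D, 0.30 for subfamily E, 0.27 for subfamily F, 0.99 for apical efflux pumps, 1.0 for basolateral and other organic anion pumps, 0.21 for sulfonylurea receptors, 0.85 for sterol and phospholipid transporters, -0.058 for mitochondrial transporters, 0.0027 for lysosomal transporters, 0.27 for soluble translation factors, 1.57 for ABC proteins named otherwise, 1.02 for peptide loading partners of TAP, 0.22 for PDZ and ERM scaffolds of apical pumps, 0.24 for receptors that regulate ABC genes, 0.65 for cholesterol efflux partners, -0.16 for peroxisomal import and very long chain oxidation, 0.24 for mitochondrial heme and iron-sulfur partners, 0.26 for ribosome recycling and eIF2 partners. With the values as deposited they were 0.58 for ABC members, 0.85 for subfamily A, 0.35 for subfamily B, 0.68 for subfamily C, 0.46 for subfamily D, 0.47 for subfamily E, 0.43 for subfamily F, 1.11 for apical efflux pumps, 1.15 for basolateral and other organic anion pumps, 0.53 for sulfonylurea receptors, 0.95 for sterol and phospholipid transporters, 0.12 for mitochondrial transporters, 0.21 for lysosomal transporters, 0.43 for soluble translation factors, 1.69 for ABC proteins named otherwise, 1.18 for peptide loading partners of TAP, 0.39 for PDZ and ERM scaffolds of apical pumps, 0.41 for receptors that regulate ABC genes, 0.76 for cholesterol efflux partners, 0.022 for peroxisomal import and very long chain oxidation, 0.41 for mitochondrial heme and iron-sulfur partners, 0.43 for ribosome recycling and eIF2 partners. With the deposited values scaled, they were 0.12 for subfamily C, -0.032 for sulfonylurea receptors. With no filter on low reads, which adds Abcc8, they were 0.58 for subfamily C, 0.36 for sulfonylurea receptors. Beyond the change of scale and of genes kept, the cause was not tested. Other counts stayed within 1.5 times. Other medians of these groups stayed between the median lower limit and the median upper limit of their members' intervals, a band that is wide where members have few reads. Subfamily G counted as unmoved by that rule, at 0.092 as scaled here, 0.51 with equal totals and 0.79 unscaled. A floor of the column minimum, chosen after seeing the data, left 39 members and moved none of these results.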
